A study of Medicago truncatula with 18 samples.

Results

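*MtFKF1* (*Medtr8g105590*) and *MtGI* (*Medtr1g098160*) were examined as a pair, by name and identifier, in all RNA-Seq libraries of a shift from short days to long days in *Medicago truncatula* leaves. They are 2 of the 50444 genes quantified, and the question was how the timing and the ratio of their transcripts compared in long days and short days during the early part of the day. All plants were cv 'Jester', were vernalised as germinated seedlings and grew in short days (SD, 8 h light and 16 h dark) for 10 days. LD plants were then moved to long days (LD, 16 h light and 8 h dark) with the same time of lights on, while SD plants stayed in short days. ZT is the number of hours since lights on. The groups were LD and SD at ZT0 and at ZT2, harvested at 13 days old with 3 days in LD for the LD plants (experiment 1), and LD and SD at ZT4, harvested at 15 days old with 5 days in LD (experiment 2). Each group had 3 replicate libraries, each from 2 pooled first trifoliate leaves of different plants, which gave 18 libraries. Experiment 1 used the ScriptSeq Complete Kit (Plant) and experiment 2 the TruSeq Stranded mRNA kit. A contrast of ZT4 with ZT2 therefore cannot be told apart from a difference in experiment, plant age, days in LD or kit. LD and SD were compared within 1 experiment at each timepoint.

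In *A. thaliana*, FKF1 is an F-box protein with a light-sensing LOV domain that absorbs blue light, and GI (GIGANTEA) is a large clock-controlled protein that binds FKF1 in the light. The complex marks CYCLING DOF FACTORs (CDFs), repressors of the flowering genes *CO* and *FT*, for degradation, and how far the peaks of both proteins coincide with each other and with daylight is one of the ways in which that plant tells long days from short days. The transcripts of *FKF1* and *GI* are both under the control of the circadian clock there. These roles are background from *A. thaliana* and were not measured in the *M. truncatula* leaves.

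The only sequences of the pair at hand were the study's RT-qPCR primers for *MtFKF1*. They are shown because they define the stretch of the transcript that was used to follow the gene by a separate assay, and they played no part in the RNA-Seq values below. Each is written 5′ to 3′ and is 20 bases long with 10 G or C bases.
MtFKF1 forward primer: tcaactgggtatcgtgctca
MtFKF1 reverse primer: aacgactggatccaccaaag

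The libraries held 18009808 to 19560647 estimated counts in experiment 1 and 20690658 to 23201592 in experiment 2. As a check of the tissue, 6 genes annotated as leaf proteins (5 ribulose bisphosphate carboxylase small chain genes and a light-harvesting chlorophyll-binding gene) summed to between 61758 and 112999 TPM per library (TPM is a measure of abundance scaled for transcript length and library size), and 2 leghemoglobin genes of root nodules to between 0.306 and 5.01 TPM. Replicates of every group differed by more than sampling noise (chi-square per gene between 2.30 and 77.4). In whole leaves, fewer cells of a type and less RNA per cell cannot be told apart.

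*MtFKF1*, the F-box blue-light receptor of the pair, was a low-abundance transcript except in SD at ZT4. At ZT0 it had 0.622, 0.294 and 0.647 TPM in LD (31, 14 and 33 estimated counts), against 0.0608, 0.0399 and 0.0403 TPM in SD (3, 2 and 2 counts). At ZT2 it had 0.214, 0.354 and 0.226 TPM in LD (11, 17 and 11 counts), against 0.639, 0.652 and 0.766 TPM in SD (31, 34 and 37 counts). The LD libraries were all above the SD libraries at ZT0 and all below them at ZT2. At ZT4 the values were 0.238, 0.241 and 0.244 TPM in LD (15, 16 and 16 counts), against 6.89, 7.77 and 9.57 TPM in SD (414, 453 and 576 counts), again with no overlap.

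*MtGI*, the partner that binds FKF1 in *A. thaliana*, was low only at ZT0. It had 0.101, 0.0634 and 0.0397 TPM in LD at ZT0 (10, 6 and 4 counts), against 0.713, 0.507 and 0.707 TPM in SD (70, 50 and 69 counts). At ZT2 it had 24.1, 25.2 and 25.5 TPM in LD (2433, 2384 and 2442 counts), against 41.7, 39.4 and 50.0 TPM in SD (3964, 4051 and 4772 counts). The LD libraries were below the SD libraries at both timepoints. At ZT4 the values were 18.4, 14.8 and 11.8 TPM in LD (2267, 1913 and 1513 counts), against 51.6, 53.6 and 55.0 TPM in SD (6064, 6106 and 6466 counts), with LD below SD once more.

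**Figure D1:**
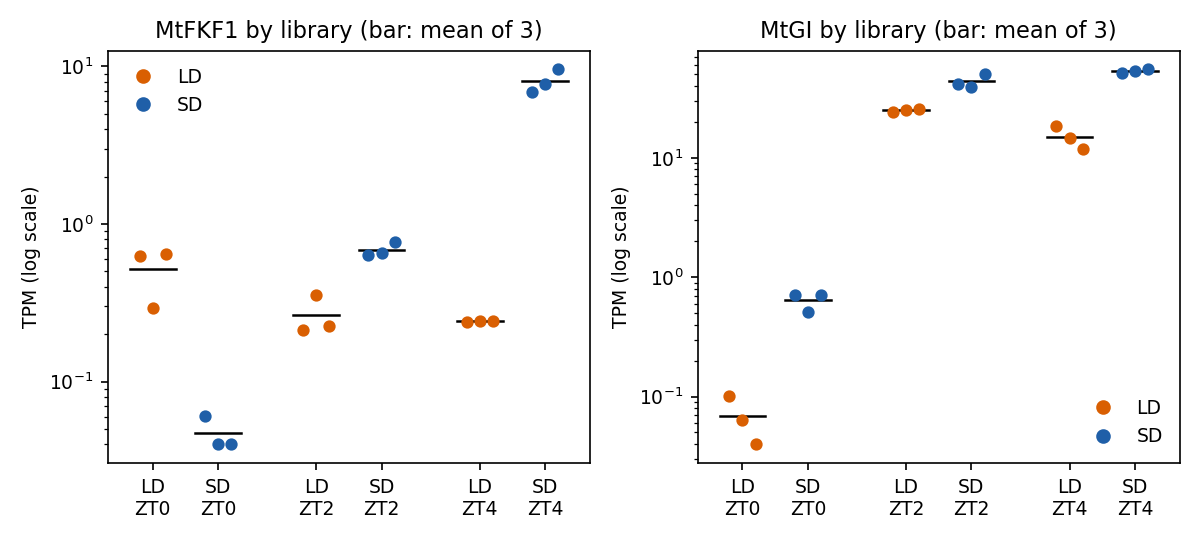
Abundance in TPM (log scale) of *MtFKF1* (left) and *MtGI* (right) in each of the 18 libraries. Points are libraries, orange for LD and blue for SD, horizontal bars are means of 3 libraries, and groups run from ZT0 to ZT4 along the horizontal axis. *MtFKF1* in SD at ZT4 sits between 6.89 and 9.57 TPM, above all its other libraries, while *MtGI* is at 11.8 TPM or more in every library at ZT2 and ZT4.

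With LD set against SD at ZT0, both genes differed and in opposite directions. *MtFKF1* was higher in LD by a log2 fold change of 3.32 (SE 0.41, edgeR adjusted p = 2.41e-06, from its quasi-likelihood method after Benjamini and Hochberg), with means of 0.521 ± 0.197 TPM in LD and 0.0470 ± 0.0120 TPM in SD (± standard deviation, n = 3 each, here and below). *MtGI* was lower in LD by almost the same amount, with a log2 fold change of -3.31 (SE 0.25, edgeR adjusted p = 3.66e-09) and means of 0.0682 ± 0.0312 TPM in LD and 0.642 ± 0.117 TPM in SD. Both passed the threshold of 0.05, as did 29.6% of the 31363 genes tested. The size of the *MtFKF1* difference rests on 78 counts in the LD libraries together, against 7 in SD, which give a fold of 10.4 with an exact 95% counting interval of 4.83 to 26.8. For *MtGI* the sums were 20 counts in LD and 189 in SD, a fold of 0.0992 with an interval of 0.0592 to 0.158. Such intervals cover counting error only.

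At ZT2 both genes were lower in LD. The log2 fold change was -1.42 for *MtFKF1* (SE 0.27, edgeR adjusted p = 4.21e-04), with means of 0.265 ± 0.0775 TPM in LD and 0.686 ± 0.0699 TPM in SD. It was -0.85 for *MtGI* (SE 0.11, edgeR adjusted p = 7.18e-06), with means of 24.9 ± 0.729 TPM in LD and 43.7 ± 5.58 TPM in SD. Both calls stood beside 20.6% of all genes called at ZT2.

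At ZT4 both genes were again lower in LD, and the *MtFKF1* difference was the larger of the 2. *MtFKF1* had a log2 fold change of -4.99 (SE 0.21, edgeR adjusted p = 1.20e-12), a 31.8-fold lower level, with means of 0.241 ± 0.00285 TPM in LD and 8.08 ± 1.36 TPM in SD. The LD libraries varied less than counting error alone would give, by 4.88% of the mean scaled count against 25.3%. The summed counts, 47 in LD and 1443 in SD, give SD over LD a fold of 32.1 with a counting interval of 24.0 to 43.9. Ordered by fitted fold change from the lowest, *MtFKF1* was number 31 of the 31363 genes tested. *MtGI* had a log2 fold change of -1.78 (SE 0.12, edgeR adjusted p = 4.51e-10), with means of 15.0 ± 3.31 TPM in LD and 53.4 ± 1.73 TPM in SD, and was number 1597 in the same order. Both passed, as did 29.3% of all genes, and the median log2 fold change over all genes was -0.04.

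**Figure D2:**
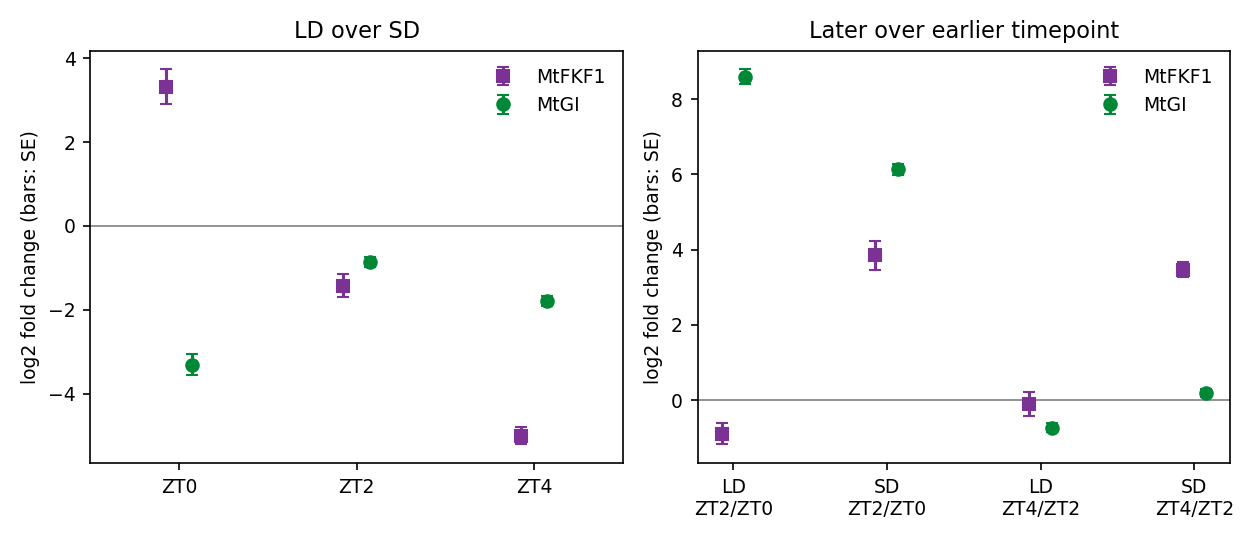
Fitted log2 fold changes of *MtFKF1* (purple squares) and *MtGI* (green circles), with bars for the standard error. The left panel gives LD over SD at each timepoint, and the right panel gives the later over the earlier timepoint within LD and within SD. The genes sit at 3.32 and -3.31 at ZT0 and both sit below 0 at ZT2 and ZT4.

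The effect of LD therefore differed between timepoints for each gene. The 2 interaction terms of photoperiod and timepoint, tested jointly in edgeR's quasi-likelihood framework, gave an adjusted p of 2.64e-11 for *MtFKF1* and 1.91e-06 for *MtGI*, and 30.4% of all genes passed this test. Between ZT0 and ZT2 the LD effect on *MtFKF1* shifted by -4.74 (SE 0.49, adjusted p = 7.04e-07) and that on *MtGI* by 2.45 (SE 0.29, adjusted p = 3.57e-06), in opposite directions. Among all genes, 9.79% were called for a downward shift like that of *MtFKF1* and 8.25% for an upward one like that of *MtGI*. Between ZT2 and ZT4 the shift was -3.57 for *MtFKF1* (SE 0.38, adjusted p = 1.06e-06) and -0.92 for *MtGI* (SE 0.16, adjusted p = 3.05e-04), with 14.5% of all genes called. That interval also spans the change of experiment, plant age, days in LD and kit, from which its shift cannot be told apart. It enters the joint test as well. *MtFKF1* was 1 of 358 genes (1.14% of those tested) that were higher in LD at ZT0 and lower at ZT2 and ZT4, each call past the threshold. *MtGI* was 1 of 588 genes (1.87%) that were lower in LD at all 3 timepoints.

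The morning course in SD differed between the genes. On the TPM scale, *MtGI* in SD had already reached most of its ZT4 level by ZT2, whereas most of the rise in *MtFKF1* lay between ZT2 and ZT4. On the log2 scale the *MtFKF1* steps were close in size, at 3.85 and then 3.47. The ZT4 level comes from the other experiment, with its own plant age and kit. The SD mean at ZT2 was 81.8% of the mean at ZT4 for *MtGI* and 8.49% for *MtFKF1*. From ZT0 to ZT2 in SD, *MtGI* rose by 6.13 on the log2 scale (SE 0.15, edgeR adjusted p = 7.04e-16), a 70.1-fold rise, and *MtFKF1* by 3.85 (SE 0.39, edgeR adjusted p = 1.25e-07). The counts behind the *MtFKF1* rise were 102 at ZT2 and 7 at ZT0 over the 3 libraries, a fold of 15.1 with a counting interval of 7.06 to 38.5. In this interval of SD, 35.3% of all genes were called, and 15 genes, *MtGI* included, rose as far as *MtGI*.

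From ZT2 to ZT4 in SD, *MtFKF1* rose a further 3.47 (SE 0.19, edgeR adjusted p = 2.08e-11), an 11.1-fold rise, where 32.3% of all genes were called. *MtGI* showed a log2 fold change of 0.20 (SE 0.11, edgeR adjusted p = 0.221) over the same interval, which did not pass. Its TPM did not overlap between ZT4 and ZT2 in SD, whereas its counts scaled by library size did, with 5359 to 5610 at ZT4 and 4415 to 5410 at ZT2.

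In LD the genes moved apart between ZT0 and ZT2. *MtGI* rose by 8.59 (SE 0.20, edgeR adjusted p = 2.36e-16), and only 3 of the 31363 genes, *MtGI* among them, had a fitted rise of that size or more. Its 7259 counts at ZT2 against 20 at ZT0 give a fold of 389.6 with a counting interval of 252 to 638. *MtFKF1* fell by 0.89 (SE 0.29, edgeR adjusted p = 0.0235) over the same interval, where 24.4% of all genes were called. Its LD libraries at ZT2 and ZT0 overlapped, since the ZT0 library with 0.294 TPM lay below the ZT2 library with 0.354 TPM. This call was lost when any of 4 libraries was left out (LD ZT0 replicates 1 and 3, LD ZT2 replicates 1 and 3), with an adjusted p between 0.0739 and 0.128, and when only the 6 libraries concerned were fitted (adjusted p = 0.116).

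From ZT2 to ZT4 in LD, *MtGI* fell by 0.72 (SE 0.12, edgeR adjusted p = 4.87e-05), with no overlap of libraries, and 21.6% of all genes were called. *MtFKF1* had a log2 fold change of -0.10 (SE 0.31, edgeR adjusted p = 0.893), with overlapping libraries. Across the LD libraries *MtFKF1* ranged between 0.214 and 0.647 TPM, a span that lay wholly below its SD level at ZT4.

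Ordered by mean TPM, *MtFKF1* was highest in SD at ZT4, then SD at ZT2, LD at ZT0, LD at ZT2, LD at ZT4 and SD at ZT0. Each neighbouring pair between SD at ZT2 and LD at ZT4 in that order overlapped in its libraries, so that these 4 groups formed a gradual series, while SD at ZT4 was 11.8 times the next mean and LD at ZT4 was 5.12 times SD at ZT0. The order for *MtGI* was SD at ZT4, SD at ZT2, LD at ZT2, LD at ZT4, SD at ZT0 and LD at ZT0, and no neighbours overlapped in TPM. Its widest step was between LD at ZT4 and SD at ZT0, at 23.3 times. The lowest group was therefore SD at ZT0 for *MtFKF1* and LD at ZT0 for *MtGI*, and the highest was SD at ZT4 for both.

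TPM is scaled for transcript length, which allows the level of one gene to be set against the other within a library. The effective length of *MtFKF1* was between 0.503 and 0.513 of that of *MtGI* in all libraries. *MtGI* was the more abundant in all libraries but the 3 from LD at ZT0. There, *MtFKF1* was 6.13, 4.64 and 16.3 times *MtGI*, with exact 95% counting intervals of 2.93 to 14.0, 1.68 to 14.7 and 5.80 to 63.4. In SD at ZT0 it was 8.52%, 7.87% and 5.70% of *MtGI*, with intervals of 1.72 to 26.0%, 0.927 to 29.9% and 0.677 to 21.4%, which rest on 2 or 3 *MtFKF1* counts each.

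At ZT2 the ratio was low in both photoperiods. *MtFKF1* was 0.886%, 1.40% and 0.887% of *MtGI* in LD, against 1.53%, 1.66% and 1.53% in SD. The LD values were the lower ones and did not overlap with SD, but their counting intervals did, with 0.442 to 2.25% over the LD libraries and 1.04 to 2.32% over the SD libraries. At ZT4 the ratio was 1.29%, 1.63% and 2.06% in LD, against 13.4%, 14.5% and 17.4% in SD, where even the counting intervals were apart, with an LD upper bound of 3.36% and an SD lower bound of 12.1%. The largest ratio of the 18 libraries was 1839 times the smallest.

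**Figure D3:**
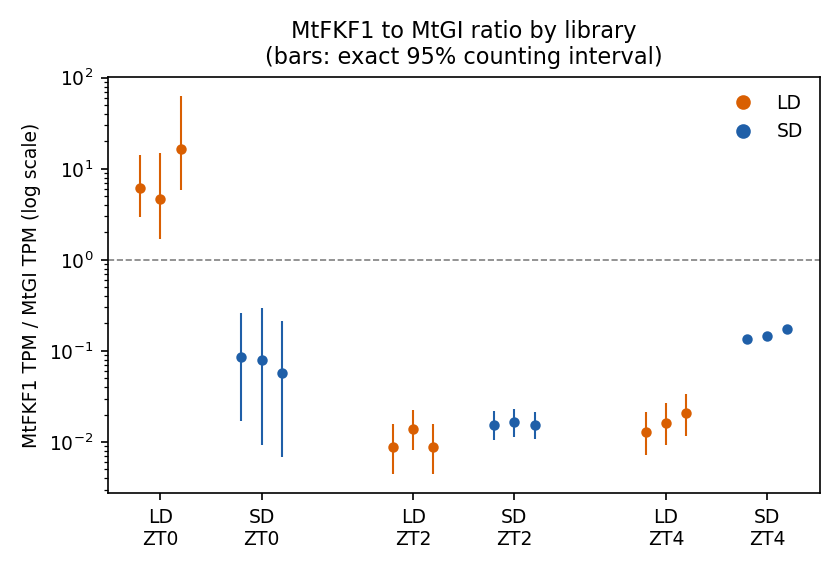
TPM of *MtFKF1* divided by TPM of *MtGI* in each library (log scale), with LD in orange and SD in blue. Bars are exact 95% counting intervals of the ratio and the dashed line marks equal TPM. Only the 3 LD libraries at ZT0 lie above the line, at 4.64 to 16.3. The points of SD at ZT4 lie at 0.134 to 0.174, above those of every remaining library. The bars of SD at ZT0 reach up to 0.299 and overlap with those of SD at ZT4.

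For the test of the ratio, the difference in log2(TPM + 0.1) between the genes was taken in each library. LD exceeded SD by 4.17 at ZT0, with means of 1.84 ± 0.57 in LD and -2.33 ± 0.20 in SD (± standard deviation, n = 3 each), and was below SD by a difference of -2.72 at ZT4, with means of -5.45 ± 0.33 in LD and -2.72 ± 0.19 in SD. The separation was complete at both timepoints, for an exact permutation p of 0.10 (two-sided), the smallest that 3 libraries against 3 can give, so that these tests could not pass 0.05. At ZT2 the difference was -0.33 (exact permutation p = 0.30). The sign at ZT2 depended on the pseudocount, with -0.57 at 0.01 TPM and 0.36 at 1 TPM (exact permutation p = 0.10 each), so that the lower LD ratios given above for ZT2 hold for the ratio itself and not under every pseudocount. The pseudocount of 0.1 TPM exceeded the *MtFKF1* level in every SD library at ZT0, and the difference at ZT0 was 6.28 with 0.01 TPM and 1.15 with 1 TPM. At ZT4 the difference was -3.14 with 0.01 TPM and -1.07 with 1 TPM, with LD below SD throughout.

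Between ZT0 and ZT2 the log2 ratio fell by 7.97 in LD, and in SD it fell by 3.47. The size of both falls depended on the pseudocount, with -9.30 in LD and -2.45 in SD at 0.01 TPM, and -4.86 in LD and -4.08 in SD at 1 TPM. The log2 ratio was higher at ZT4 than at ZT2 by 0.68 in LD and by 3.07 in SD. Each of these 4 comparisons was complete in its separation with 0.1 TPM (exact permutation p = 0.10, the smallest possible). For ZT4 against ZT2 in LD the separation was lost with 0.01 TPM and with the ratio of counts (exact permutation p = 0.20 each), and the ratios themselves overlapped, with 1.29% in an LD library at ZT4 and 1.40% in an LD library at ZT2. Adjusted over the 7 comparisons of the ratio, p was 0.117 for all of them but LD against SD at ZT2, where it was 0.30.

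Other genes of the photoperiod pathway were taken from lists of 56 genes, of which 54 had enough counts for the test. The lists held *MtZTL* and the cryptochrome, *COP1* and *SPA*, CDF, clock, *CO-like* and *FT-like* genes. They are only a part of the study's candidate list. Its phytochrome, TOPLESS-like, NF-Y, AP2, PIF and further candidates were left out, so that the shares below are not those of the whole list. Of these, 39 differed between LD and SD at ZT0, 34 at ZT2 and 43 at ZT4. LD was the higher in 15, 21 and 17 of them at these timepoints and the lower in 24, 13 and 26. The shares were 72.2%, 63.0% and 79.6%, against 29.6%, 20.6% and 29.3% of all genes. By direction, 15.5%, 10.3% and 12.4% of all genes were higher in LD at these timepoints and 14.2%, 10.3% and 16.9% were lower. The study had chosen such candidates with knowledge of the pathway, and some were discussed from these libraries, so that the counts are a description.

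*MtZTL* (*Medtr2g036510*), the only other F-box and LOV domain gene in the lists, whose *A. thaliana* relative ZTL also binds GI in blue light, was not called between LD and SD at any timepoint. Its mean was 17.8 ± 1.15 TPM in LD and 16.5 ± 1.91 TPM in SD at ZT0, 16.1 ± 0.506 TPM in LD and 16.2 ± 0.872 TPM in SD at ZT2, and 11.3 ± 1.67 TPM in LD and 11.6 ± 0.347 TPM in SD at ZT4. The log2 fold changes were 0.03, -0.05 and 0.03 (SE 0.08 each, edgeR adjusted p at least 0.735), and the interaction was not called (adjusted p = 0.851). It was lower at ZT4 than at ZT2 in LD (-0.51, adjusted p = 3.84e-05) and in SD (-0.59, adjusted p = 6.94e-06). At ZT2 *MtZTL* was more abundant per length than *MtFKF1* and less abundant than *MtGI*, while in SD at ZT4 the 3 genes had 11.6, 8.08 and 53.4 TPM for *MtZTL*, *MtFKF1* and *MtGI*.

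The CDFs are the proteins that the FKF1 and GI complex removes in *A. thaliana*, and 14 of their genes were tested here. Of the 14, 57.1%, 64.3% and 71.4% were called at ZT0, ZT2 and ZT4, against 29.6%, 20.6% and 29.3% of all genes. CDF genes higher in LD numbered 3 at ZT0, 8 at ZT2 and 9 at ZT4, and those lower in LD numbered 5, 1 and 1. For all genes the shares at these timepoints were 15.5%, 10.3% and 12.4% higher and 14.2%, 10.3% and 16.9% lower. *MtCDF1* (*Medtr2g059540*) was the CDF gene called lower in LD at ZT2 and ZT4. Its libraries held 0 or 1 count in LD, against 12 to 25 counts in SD at ZT2 (edgeR adjusted p = 2.94e-05) and 169 to 225 counts in SD at ZT4 (edgeR adjusted p = 6.14e-10), and it had 0 counts in all libraries at ZT0.

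The other CDFs that were called at ZT4 ran the other way from both members. *MtCDF5* (*Medtr6g027460*) averaged 5.81 ± 0.247 TPM in LD and 0.214 ± 0.0846 TPM in SD at ZT4 (log2 fold change 4.79), and *MtCDF4* (*Medtr6g012450*) averaged 9.29 ± 1.46 TPM in LD and 1.83 ± 0.207 TPM in SD (log2 fold change 2.40). The median log2 fold change of the 14 genes was -0.22 at ZT0, 1.14 at ZT2 and 2.29 at ZT4, against a median of all genes of 0, 0 and -0.04. Many of these genes had few counts: with the 6 genes that had at most 3 counts in every library of LD or of SD at ZT4 set to a bound at 3 counts, the median at ZT4 was 0.68.

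The clock genes, which set the daily timing of *FKF1* and *GI* transcripts in *A. thaliana*, had 17 tested members. Of the 17, 82.4%, 76.5% and 88.2% were called at ZT0, ZT2 and ZT4, against 29.6%, 20.6% and 29.3% of all genes. LD exceeded SD in 6 of the clock genes at ZT0, in 5 at ZT2 and in 1 at ZT4. It was below SD in 8, 8 and 14 of them at those timepoints. Over all genes, 15.5%, 10.3% and 12.4% were higher in LD and 14.2%, 10.3% and 16.9% were lower. The clock gene higher at ZT4 was *MtLHY* (*Medtr7g118330*), a morning-expressed repressor in *A. thaliana*, with 405 ± 24.3 TPM in LD and 58.9 ± 5.90 TPM in SD (log2 fold change 2.84). The sign order of *MtGI*, lower in LD at all 3 timepoints, was shared by 7 of the clock genes and by the cryptochrome gene *MtCRY2B*. These were 8 of the 54 pathway genes tested, where 1.87% of all genes had this order. Among the 7 were 4 *PRR* genes, day-phased repressors of the clock in *A. thaliana*: *MtPRR37a*, *MtPRR37b*, *MtPRR59b* and *MtPRR59c*. The rest of the 7 were a *LUX* gene and *ELF4-like* genes. Not every *PRR* gene had this order, since *MtPRR59a* was not called at ZT0 (log2 fold change 0.30, edgeR adjusted p = 0.600). The clock gene *MtTOC1a* was higher in LD at ZT0 (4.38) and ZT2 (2.01) and lower at ZT4 (-1.01). *MtPRR59c* (*Medtr7g118260*) averaged 0.159 ± 0.128 TPM in LD and 10.3 ± 2.87 TPM in SD at ZT0, 7.57 ± 1.64 TPM in LD and 29.2 ± 2.12 TPM in SD at ZT2, and 17.5 ± 4.96 TPM in LD and 69.1 ± 0.606 TPM in SD at ZT4.

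The sign order of *MtFKF1*, higher in LD at ZT0 and lower at ZT2 and ZT4, was found in 1.14% of all genes tested. Of the 54 pathway genes tested, 1 shared it, and a single match is a description only. That gene was the *SPA1-like* gene *Medtr8g027985*, whose *A. thaliana* relatives act with COP1 to degrade CO in darkness. It averaged 8.85 ± 1.10 TPM in LD and 0.739 ± 0.247 TPM in SD at ZT0, 10.1 ± 0.881 TPM in LD and 20.5 ± 2.56 TPM in SD at ZT2, and 12.9 ± 1.48 TPM in LD and 41.8 ± 0.796 TPM in SD at ZT4. Its log2 fold changes were 3.46, -1.06 and -1.65 (SE 0.14, 0.11 and 0.11, edgeR adjusted p at most 3.41e-07).

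The blue-light receptors of the cryptochrome class numbered 3, and all were lower in LD at ZT0 and at ZT4, with 1 higher and 1 lower at ZT2. *MtCRY2B* (*Medtr1g043190*) had the lowest log2 fold change of the 3 at ZT4, at -3.10, with 0.913 ± 0.167 TPM in LD and 8.14 ± 0.180 TPM in SD. Of the 4 *COP1* and *SPA* genes, 3 were called at ZT0, 4 at ZT2 and 1 at ZT4. Of 11 *CO-like* genes, 3, 4 and 4 were higher in LD at ZT0, ZT2 and ZT4, and 6, 0 and 6 were lower. Among all genes, 29.6%, 20.6% and 29.3% were called at these timepoints, and the *COP1* and *SPA* share at ZT4, 25.0%, did not exceed that. By direction, 15.5%, 10.3% and 12.4% of all genes were higher in LD and 14.2%, 10.3% and 16.9% were lower. *FT* encodes the main mobile flowering signal in *A. thaliana*. Of the *FT-like* genes, 4 were tested, of which 2 were higher at ZT0, 2 at ZT2 and 3 at ZT4, with 1 lower at ZT4. *MtFTb1* and *MtFTb2* had 0 counts in every library at ZT0 and could not be called there. The *MtFTb1* call at ZT2 rests on 5 to 7 counts in LD, against 0 in SD. At ZT4, 3 of the 4 genes had at most 3 counts in every SD library, so that the size of their folds is uncertain. Per the study, a role in flowering time was still to be shown for the *FT-like* genes other than *MtFTa1*.

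**Figure D4:**
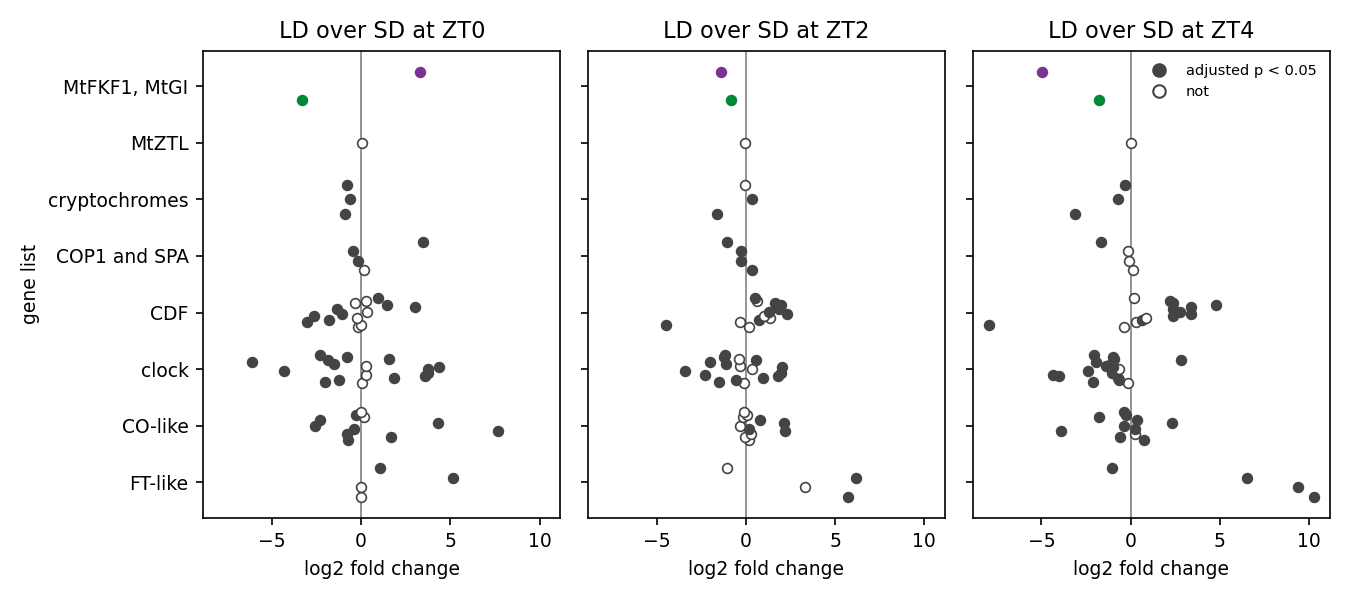
Fitted log2 fold changes of LD over SD for each pathway gene tested, by list (rows) and timepoint (panels), with *MtFKF1* in purple and *MtGI* in green in the top row. Filled points passed the edgeR threshold (adjusted p below 0.05) and open points did not. At ZT4, 14 of the 17 clock genes lie below 0 and are filled, and 9 of the 14 CDF genes lie above 0 and are filled. Among all genes at ZT4, 16.9% were called lower in LD and 12.4% higher.

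The genes most like each member were found by Pearson's r of log2(TPM + 1) over the 18 libraries, among 19758 genes with a mean normalised count above 10. The libraries share groups of 3, so that r mostly follows the 6 group means and is a description only. For *MtFKF1* the highest r belonged to *Medtr3g099150* (0.992), *Medtr5g096820* (0.989), *Medtr7g016960* (0.987), *Medtr5g013620* (0.986) and *Medtr3g008920* (0.985). The study's annotation calls them a nodulin-like transporter, a galactinol-raffinose galactosyltransferase, a PPR protein, a beta-amylase and a MIP family transporter. Like *MtFKF1*, each had its highest mean in SD at ZT4. *MtFKF1* stayed below 1 TPM in every other group, so that r with log2(TPM + 1) mainly selects for that group. Genes could also pass the count filter through that group alone. The shared peak therefore follows from the choice of genes and is no separate result. *Medtr3g008920* averaged 0.172 TPM in LD and 47.5 TPM in SD at ZT4, and *Medtr5g013620* averaged 0.495 TPM in LD and 7.11 TPM in SD.

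**Figure D5:**
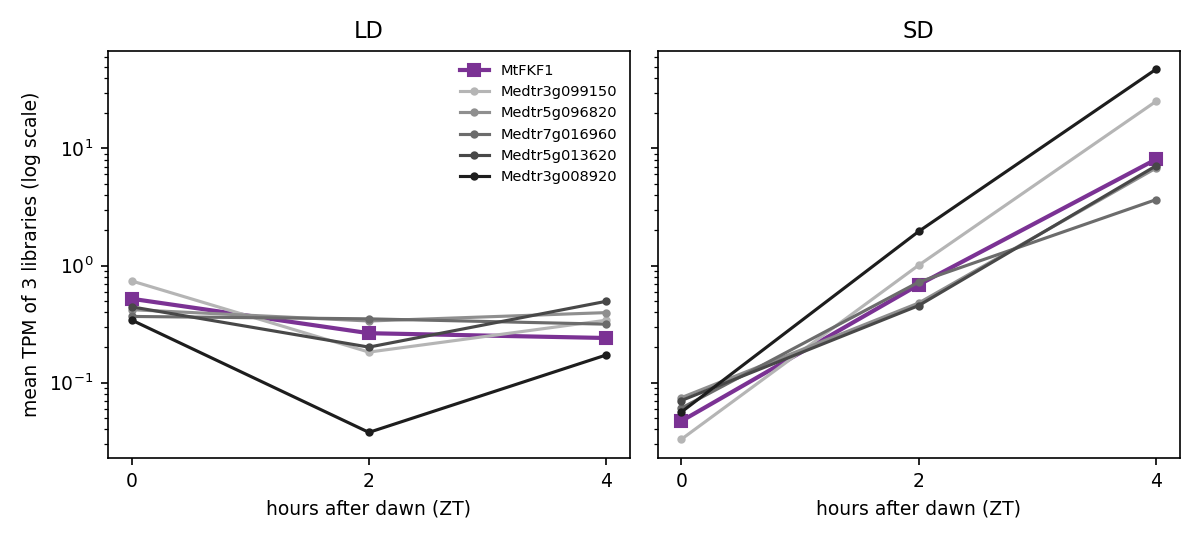
Mean TPM of 3 libraries (log scale) against hours after lights on for *MtFKF1* (purple) and the 5 genes with the highest r to it (grey), in LD (left) and SD (right). In SD all 6 lines climb at both steps to their highest mean at ZT4, between 3.66 and 47.5 TPM, and in LD all means stay under 1 TPM. The genes were chosen by r, so the shared peak in SD at ZT4 follows from the choice.

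The lowest r to *MtFKF1* belonged to *Medtr4g132420* (-0.963), an aspartic proteinase, *Medtr1g077000* (-0.954) and *Medtr2g099010* (-0.952), a salt tolerance-like gene, whose means at ZT4 were 844 TPM in LD and 324 TPM in SD. For *MtGI* the highest r belonged to *Medtr7g117170* (0.988), *Medtr3g092810* (0.973), *Medtr3g092070* (0.969), *Medtr3g031400* (0.968) and *Medtr4g019150* (0.967), and the lowest to *Medtr2g080220* (-0.978), *Medtr2g030400* (-0.973) and *Medtr3g101590* (-0.972). *Medtr7g117170* averaged 26.1 TPM in LD and 28.1 TPM in SD at ZT0, 71.5 TPM in LD and 71.9 TPM in SD at ZT2, and 53.5 TPM in LD and 77.7 TPM in SD at ZT4. The r between *MtFKF1* and *MtGI* themselves was 0.51, and *MtGI* was number 4224 in order of r to *MtFKF1*.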

How the data were processed

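Per the study's methods, the authors trimmed reads with BBDuk, quantified them with Salmon 0.8.2 against the Mt4.0v2 transcripts, and summed transcripts to genes with tximport. The deposited estimated counts and TPM come from that step, with no further scaling by the authors (11.4% of the estimated counts were not whole), and TPM sums to 1000000 per library. Reads were not aligned to a genome here, and 0 of the 50444 gene identifiers were found in a RefSeq table, so no coordinates or protein sequences are given.

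Estimated counts were rounded. R 4.3.3 and edgeR 4.0.16 were used: genes with a total count above 1 (31363) were scaled by TMM, and all 18 libraries were fitted together with 1 mean per group by the quasi-likelihood method (12 residual degrees of freedom, common biological coefficient of variation 0.123). Benjamini-Hochberg adjustment ran over all genes and the contrasts of a family (3 of LD against SD, 4 over time, 2 changes of the LD effect), or over all genes for the joint interaction, with a threshold of 0.05. The standard error is the log2 fold change over the root of the F statistic. Ratios used log2(TPM + 0.1) and exact permutation tests over all regroupings of the libraries. Counting intervals are Clopper-Pearson intervals at 95% (scipy 1.17.1). The floor of a group was set at 3 counts in each of its libraries.

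The genes named are the 2 members, the 5 genes with the highest and the 3 with the lowest r to each, *MtZTL*, *MtCDF1*, and pathway genes with an absolute log2 fold change above 2 and an adjusted p under 0.05 at a timepoint. The members and lists were chosen with earlier results of these data known. The leaf and nodule markers were those annotated in the study's supplement. Replicates came from different plants. The edgeR p-values set differences against the spread between such leaf pools within a photoperiod and timepoint, estimated over all groups together. Alternatives were DESeq2 1.42.0, RLE size factors, filterByExpr, a gene-length offset, the replicate number as a block, fewer libraries, each library left out, and other pseudocounts. RT-qPCR measurements were not analysed here.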

Additional observations from a re-analysis of the deposited data

Results flagged for a closer look

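The effect of LD differed between timepoints for both genes, by the test of the interaction itself. From ZT0 to ZT2 the log2 fold change of LD over SD shifted by -4.74 for *MtFKF1* (edgeR adjusted p = 7.04e-07) and by 2.45 for *MtGI* (edgeR adjusted p = 3.57e-06). *MtFKF1* changed sign over this interval, with LD above SD in 3 of 3 libraries at ZT0 and below in 3 of 3 at ZT2, whereas *MtGI* was lower in LD at both. From ZT2 to ZT4 the shift was -3.57 for *MtFKF1* (edgeR adjusted p = 1.06e-06) and -0.92 for *MtGI* (edgeR adjusted p = 3.05e-04), both toward a lower level in LD. This later shift cannot be told apart from the change of experiment, plant age, days in LD and kit.

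The log2 ratio of *MtFKF1* to *MtGI* was higher in LD than in SD by 4.17 at ZT0 and differed by -2.72 at ZT4, with every LD library above every SD library at ZT0 and below at ZT4. The difference between these 2 effects was not tested, and the timepoints also differ in experiment, plant age, days in LD and kit.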

How the results depend on the processing

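Of 476 alternative fits of the 20 tests on *MtFKF1* and *MtGI*, 470 kept the direction and the side of the threshold. The 5 that lost the threshold all concerned *MtFKF1* at ZT2 against ZT0 in LD. Its log2 fold change was -0.87 (adjusted p = 0.116) with only the libraries compared and between -1.18 and -0.66 with each library left out, where the adjusted p was between 0.00132 and 0.128. The 1 reversal concerned *MtFKF1* at ZT4 against ZT2 in LD, uncalled throughout, which lay between -0.27 and 0.18 with each library left out and turned positive without LD ZT2 replicate 2. The cause was not tested.

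Of 63 alternatives for the ratio, 1 reversed: LD against SD at ZT2 was 0.36 with a pseudocount of 1 TPM. All 144 alternative counts of pathway genes stayed within 1.5 times. The number of genes called for the interaction was 5435 with experiment 1 only, against 9548, where only 1 of the 2 interaction terms exists.

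The labels give the LD and SD libraries the same replicate numbers. Same-numbered libraries did not deviate together (correlations between -0.21 and 0.15), so the numbers were not taken as pairs. With the replicate block, *MtFKF1* had log2 fold changes of 3.32, -1.41 and -4.98 and *MtGI* of -3.31, -0.85 and -1.78 at ZT0, ZT2 and ZT4. The block changed no call of either gene.

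Depth limits *MtFKF1* in SD at ZT0, with 7 counts in 3 libraries, and *MtGI* in LD at ZT0, with 20. The SE of LD against SD at ZT0 was 0.41 for *MtFKF1* and 0.25 for *MtGI*. *MtFKF1* also had few counts in LD at ZT2 (39 in 3 libraries) and at ZT4 (47), and the SE of ZT4 against ZT2 in LD was 0.31. Every ZT4 value comes from another experiment.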
